A study of Mus musculus with 4 samples.

Results

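Gene-desert peaks are the narrow Bmal1 peaks that lay in unannotated intergenic sequence more than 500 kb from the nearest transcription start site (TSS). They were taken by the annotation in the deposited lists: the detailed annotation had to read Intergenic, with no repeat element named, and the distance to the TSS had to exceed 500 kb in either direction. Over 6 narrow lists, 994 of 16134 peaks met the rule, of which 726 were among the 12023 peaks of 4 single libraries and 268 came from lists called on the pooled libraries of an age. The choice used position and annotation only. Scores, base composition, motifs, broad peaks and recurrence between libraries were not part of it.

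Bmal1 was immunoprecipitated from chromatin of whole mouse retina collected at zeitgeber time 4 on postnatal day 3 (P3) or postnatal day 5 (P5), and the DNA was sequenced (ChIP-seq). Each age had 2 libraries, which the labels number 4 and 5 for P3, and 2 and 3 for P5, and 1 input library served all of them. The Bmal1 antibody has one catalogue number in the sample labels and another in the methods, so its identity was uncertain. No treatment or mutant was among these samples, and the strain is named differently in different parts of the sources, once as C57BL/6J and once as a mixed background. The sources do not say whether a library is 1 animal, 1 litter or a pool of retinas, and sex was not recorded. The spread between libraries may therefore be technical. In whole retina, the cell types that carried a peak cannot be told apart, and no value of these lists checks the tissue label.

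Bmal1 is a transcription factor of the basic helix-loop-helix PAS family. It pairs with CLOCK, or with NPAS2 in some tissues, and the pair binds the E-box and drives the Per and Cry genes, whose products inhibit it. Gene deserts are long stretches with no known gene. Many of them flank genes of development and of the nervous system, and some are known to hold enhancers that act over long distances, while others can be deleted with little visible effect. Sequence in deserts is rich in A and T.

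A single gene-desert place was called in more than 1 library, and its sequence is shown first. It lay on chromosome 8 between Slc10a2 and Efnb2, 1.07 Mb from the TSS of Efnb2, the ligand ephrin-B2. The line below holds all 276 bases that the 3 overlapping calls cover on the plus strand of GRCm38 (mm10), with the 40 bases common to the 3 calls in capitals (7588038 to 7588077).
Efnb2 chr8:7587933-7588208: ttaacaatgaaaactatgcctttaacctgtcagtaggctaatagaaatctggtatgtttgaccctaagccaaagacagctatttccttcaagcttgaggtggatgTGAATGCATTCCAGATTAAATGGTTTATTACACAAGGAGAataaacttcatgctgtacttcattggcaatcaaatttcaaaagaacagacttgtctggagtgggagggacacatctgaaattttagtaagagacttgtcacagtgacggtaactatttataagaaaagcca

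The peaks that held the exact E-box CACGTG are shown next, because this is the motif that the Bmal1 and CLOCK pair is best known to bind. It was in 4 of 994 gene-desert peaks (0.402%), 2 in P3 replicate 4 (Robo1 and Gm6634) and 2 in the P3 pooled list (Tle4 and Aga). Of windows of the same length across gene deserts, 0.607 to 0.757% held it, depending on the list. CACGTG is in capitals. Each is named by its nearest gene as annotated.
Robo1 chr16:73462160-73462304: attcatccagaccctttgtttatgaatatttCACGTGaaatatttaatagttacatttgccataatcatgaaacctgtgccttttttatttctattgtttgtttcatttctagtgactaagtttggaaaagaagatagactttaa
Gm6634 chr3:71554224-71554368: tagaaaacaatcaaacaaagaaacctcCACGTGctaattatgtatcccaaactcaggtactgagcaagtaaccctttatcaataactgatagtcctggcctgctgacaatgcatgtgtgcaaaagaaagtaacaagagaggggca
Tle4 chr19:15126730-15126894: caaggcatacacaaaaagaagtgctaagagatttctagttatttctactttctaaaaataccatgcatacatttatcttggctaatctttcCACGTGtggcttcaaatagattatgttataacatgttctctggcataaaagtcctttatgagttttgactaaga
Aga chr8:52901097-52901261: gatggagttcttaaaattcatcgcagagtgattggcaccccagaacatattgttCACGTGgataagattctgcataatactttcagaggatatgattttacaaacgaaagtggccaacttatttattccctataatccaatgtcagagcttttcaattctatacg

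All 7 gene-desert peaks of P5 replicate 2 are shown because this was the smallest set and 5 of its 7 sequences held the flexible E-box, the pattern used for these data: CACGTG or CACTTG or CATGTG or CATTTG, read on either strand. Capitals mark a match in either orientation.
Dsel chr1:112743990-112744154: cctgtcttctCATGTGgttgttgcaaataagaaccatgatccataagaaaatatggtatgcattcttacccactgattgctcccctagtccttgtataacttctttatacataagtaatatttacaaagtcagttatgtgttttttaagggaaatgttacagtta
Slc10a2 chr8:5684891-5685055: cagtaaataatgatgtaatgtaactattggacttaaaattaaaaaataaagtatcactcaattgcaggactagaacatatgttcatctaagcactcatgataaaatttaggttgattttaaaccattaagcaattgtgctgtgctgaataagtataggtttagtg
Crim1 chr17:77058338-77058502: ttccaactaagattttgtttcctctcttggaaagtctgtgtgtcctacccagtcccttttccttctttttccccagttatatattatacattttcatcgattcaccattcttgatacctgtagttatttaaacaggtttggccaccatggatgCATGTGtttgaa
4932441J04Rik chr5:56225658-56225822: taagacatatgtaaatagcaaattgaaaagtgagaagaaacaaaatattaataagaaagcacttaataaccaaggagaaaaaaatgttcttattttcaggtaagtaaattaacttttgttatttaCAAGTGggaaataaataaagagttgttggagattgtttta
4930474H20Rik chr14:90850012-90850176: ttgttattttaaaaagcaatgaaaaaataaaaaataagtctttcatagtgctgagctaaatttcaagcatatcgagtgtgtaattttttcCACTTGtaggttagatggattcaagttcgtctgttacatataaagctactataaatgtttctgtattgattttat
Edil3 chr13:87991845-87992009: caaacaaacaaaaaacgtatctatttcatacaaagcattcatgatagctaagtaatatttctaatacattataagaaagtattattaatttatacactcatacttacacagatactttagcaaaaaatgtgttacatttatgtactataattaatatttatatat
Celf2 chr2:8169787-8169951: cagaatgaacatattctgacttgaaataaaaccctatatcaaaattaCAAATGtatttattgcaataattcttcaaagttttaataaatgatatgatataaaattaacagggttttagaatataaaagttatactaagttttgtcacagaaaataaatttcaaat

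The highest-scoring gene-desert peaks of P3 replicate 4 (Grm7) and P5 replicate 3 (Cdh9, which shared that score with 1700009N14Rik) and of the P5 pooled list (4930404A05Rik) complete the set, with the flexible E-box in capitals where it occurred. Of these 3 only the P5 pooled peak held a match.
Grm7 chr6:110063332-110063476: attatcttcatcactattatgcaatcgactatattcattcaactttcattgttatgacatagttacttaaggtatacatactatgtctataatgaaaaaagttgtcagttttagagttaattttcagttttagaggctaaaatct
Cdh9 chr15:15979471-15979641: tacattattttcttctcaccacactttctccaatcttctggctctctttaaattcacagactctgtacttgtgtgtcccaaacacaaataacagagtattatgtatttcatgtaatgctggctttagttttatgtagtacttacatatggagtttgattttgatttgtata
4930404A05Rik chr16:53354644-53354782: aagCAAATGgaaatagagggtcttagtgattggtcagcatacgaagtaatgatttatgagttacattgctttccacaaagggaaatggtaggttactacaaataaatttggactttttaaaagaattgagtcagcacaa

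The libraries differed in how many peaks they gave. The steps between the scores correspond to 55.2 to 68.3 M tags per library, and 120.9 and 130.2 M in the P3 and P5 pooled lists, yet the narrow lists held 9543 peaks in P3 replicate 4, 944 in P3 replicate 5, 200 in P5 replicate 2 and 1336 in P5 replicate 3. The P3 pooled list held 3625 and the P5 pooled list 486. The tag numbers read from the steps are well above the sequencing depth that the study reports, and this conflict was not settled. All tag counts given below rest on the steps. P3 replicate 4 stood apart, with the most peaks and the fewest tags, and it gave 80.2% of the gene-desert peaks of single libraries, so comparisons were made as shares within a library and with each library left out in turn.

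Gene-desert peaks made up a similar part of most lists. They numbered 582 in P3 replicate 4, which was 6.10% of its peaks (95% Clopper-Pearson interval 5.63 to 6.60%). P3 replicate 5 had 64, or 6.78% (5.26 to 8.58%). P5 replicate 2 had 7, or 3.5% (1.42 to 7.08%), and P5 replicate 3 had 73, or 5.46% (4.31 to 6.82%). Both P3 libraries were above both P5 libraries, and the 4 intervals overlapped. The mean share was 1.96 percentage points higher at P3 (exact permutation test over libraries, two-sided, p = 0.33, the smallest p that 2 libraries against 2 can give). It was 0.975 points without P5 replicate 2 and 0.995 points at a limit of 1 Mb. The lists called on pooled libraries, which hold the same reads, had 237 (6.54%, 5.75 to 7.39%) at P3 and 31 (6.38%, 4.37 to 8.93%) at P5. The intervals cover counting error only.

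Each list was set beside the part of the genome that is as far from genes. By the curated RefSeq transcripts of GRCm38.p6, 203.9 of 2647.5 Mb of non-gap sequence lay outside genes and more than 500 kb from a TSS (7.70%), in 292 stretches. Narrow peaks of every annotation, repeats included, were sorted by the same transcripts, so that peaks and bases followed 1 rule. The share of peaks divided by the share of bases was 1.02 in P3 replicate 4, 1.20 in P3 replicate 5, 0.714 in P5 replicate 2 and 0.991 in P5 replicate 3. The ratios lay on both sides of 1, with a mean log2 of -0.05 (exact sign-flip permutation test over 4 libraries, two-sided, p = 0.875). Chromosome Y, with 17.9% of the desert bases and no gene-desert peak, was part of this share, and on autosomes alone the mean log2 turned to 0.20, with 3 of 4 libraries above 1 (exact sign-flip permutation test, two-sided, p = 0.25). Without P5 replicate 2 the mean was 0.0906. In P3 replicate 4, 6.82% of the narrow peaks were 500 to 1000 kb from a curated TSS and 1.90% were farther, beside 6.12% and 2.28% of the non-gap genome. P5 replicate 2, with 200 peaks, departed more, with 4% and 1.5% in these classes and 11% within 10 kb beside 16.8% of the genome.

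**Figure D1:**
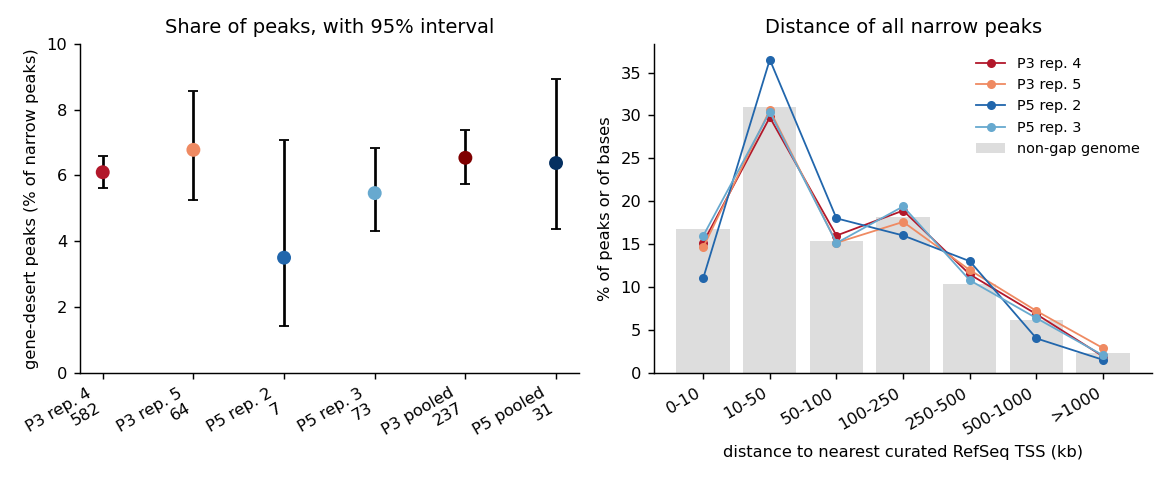
Left, gene-desert peaks as a percent of the narrow peaks of each list, with the 95% Clopper-Pearson interval and the number of gene-desert peaks under each name; the shares lie between 3.5 and 6.78%. Right, distance of every narrow peak of the 4 libraries to the nearest curated RefSeq TSS in kb (lines, percent of peaks) beside the non-gap genome (grey bars, percent of bases), where the line of P5 replicate 2 departs most from the bars, with 11% of its peaks beside 16.8% of bases within 10 kb.

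The annotation of the authors placed the gene-desert peaks at a median of 749 kb from the TSS in P3 replicate 4, 921 kb in P3 replicate 5, 830 kb in P5 replicate 2 and 703 kb in P5 replicate 3, and 257 of 994 lay beyond 1 Mb. The farthest was 2184 kb from Pcdh17 in P3 replicate 4 (score 3.08), followed by 2136 kb from Olfm4 in the same library (3.44), 2089 kb from Pcdh17 (2.40) and 1908 kb from Olfm4 (2.56) in the P3 pooled list, and 1859 kb from Pcdh9 in P3 replicate 4 (3.81). Pcdh17 and Pcdh9 are protocadherins, adhesion molecules of neurons, and Olfm4 is a secreted olfactomedin. The first 4 of these lay in a single interval of 4.44 Mb on chromosome 14. At the threshold, the nearest peaks kept were 501187 to 579741 bp from a TSS in the single libraries, and the nearest left out were 450282 to 499973 bp.

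How empty these places are depended on the annotation. With the curated RefSeq transcripts, 776 of 994 peaks were still outside genes and beyond 500 kb, and 21 lay inside a gene. With predicted RefSeq transcripts added, 217 remained and 60 lay inside a gene. The nearest gene had the same name in both annotations for 578 peaks (58.1%), and 285 peaks (28.7%) had a gene of a noncoding type as their nearest. All 994 sequences had a median of 1 exact copy per 31-base word in the genome, 957 had no word with a second copy, and none held a word of the mitochondrial genome. The annotation names no repeat for them, yet only 304 of 994 (30.6%) held no repeat-masked base. In P3 replicate 4 a mean of 16.8% of the bases of a peak were masked, and in P5 replicate 2 29.2%.

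Gene-desert peaks were weak, as were most peaks of these lists. The score is the number of tags per 10 M, and its lowest, median and highest values were 2.36, 3.63 and 5.80 in P3 replicate 4, which are 13, 20 and 32 tags. They were 2.89, 3.35 and 4.11 in P3 replicate 5 (19, 22 and 27 tags), 3.23, 3.39 and 3.55 in P5 replicate 2 (20, 21 and 22 tags) and 2.93, 3.22 and 4.10 in P5 replicate 3 (20, 22 and 28 tags). P3 replicate 4 had the lowest minimum in tags, and 391 of its 582 gene-desert peaks had 19 tags or more, which was 5.78% of its 6762 peaks at that level. Intergenic peaks within 50 kb of a TSS, with no repeat named in their annotation, are called near peaks here. They had medians of 3.63, 3.35, 3.47 and 3.22 in the same order, and all narrow peaks 3.63, 3.35, 3.55 and 3.22. The medians were equal in 3 of 4 libraries and 0.08 lower in gene deserts in P5 replicate 2, for a mean difference of -0.02 tags per 10 M (exact sign-flip permutation test, two-sided, p = 1).

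The highest peaks of the libraries lay outside gene deserts. The highest peak of any kind scored 8.70, 9.13, 7.58 and 6.45 in the 4 libraries, and the best gene-desert peak ranked 42nd, 24th, 62nd and 14th. In P3 replicate 4 that was the peak 582 kb from Grm7 (5.80), a metabotropic glutamate receptor of presynaptic terminals, followed by peaks near Zfp608, a zinc finger protein, and the pseudogene Gm17821 (5.44 each). Cobl, an actin nucleator, Cdh8 and Pcdh17 came next at 5.26. In P3 replicate 5 the peaks near Mir6350, Dppa4 and Efnb2 tied at 4.11. In P5 replicate 2 Dsel, Slc10a2 and Crim1 tied at 3.55, and the other 4 scored 3.39 (4932441J04Rik and 4930474H20Rik) and 3.23 (Edil3 and Celf2). In P5 replicate 3 Cdh9 and 1700009N14Rik had 4.10, and 4 peaks near Fbxo33, Igfbp3, Nr2f2 and Pcdh17 followed at 3.81.

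**Figure D2:**
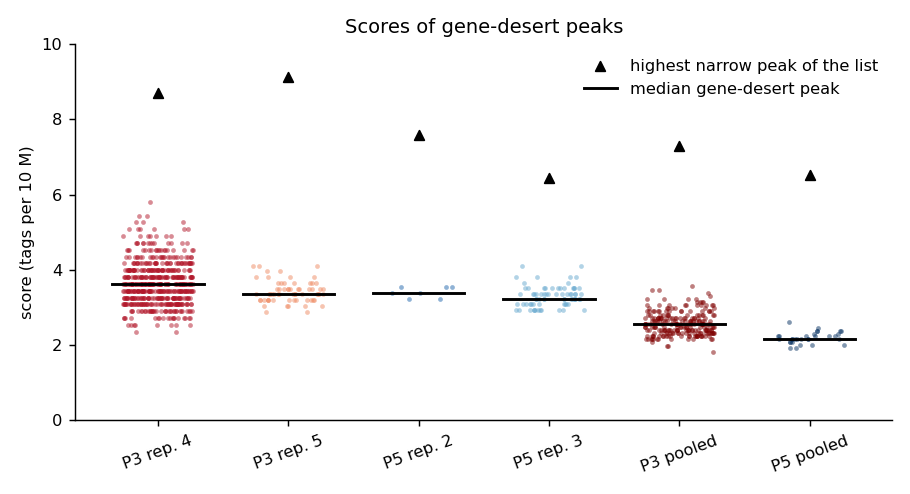
Score of every gene-desert peak (points, tags per 10 M) by list, with the median (bar) and the highest narrow peak of any kind in that list (triangle). The gene-desert peaks reach 5.80 in P3 replicate 4 and 2.61 in the P5 pooled list, below the highest peak of every list; pooled and single lists differ in tag number, so their scores are not on a common threshold.

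The libraries rarely called the same place. Overlap by 1 bp or more joined the peaks of the 4 libraries into 725 gene-desert places, of which 1 (0.138%, 0.00349 to 0.766%) had a peak in more than 1 library. Among near peaks it was 4 of 1308 places (0.306%, 0.0834 to 0.781%), and over all narrow peaks outside gene deserts 28 of 11266 (0.249%). The intervals overlapped, so no difference was detectable at these counts. No gene-desert place was in lists of both ages, which was 0 of 928 places over the 6 lists (0 to 0.397%), beside 3 of 1693 places of near peaks (0.177%, 0.0366 to 0.517%) and 19 of 14055 outside gene deserts (0.135%, 0.0814 to 0.211%). These intervals overlapped as well. Placing calls within 10 kb together, 12 of 64 gene-desert peaks of P3 replicate 5 had a peak of P3 replicate 4 that close (18.8%, beside 10.9% of near peaks), and 5 of 73 peaks of P5 replicate 3 did (6.85%, beside 6.38%).

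The Efnb2 place was the exception. Its score was 3.44 in P3 replicate 4 (19 tags), 4.11 in P3 replicate 5 (27 tags) and 3.56 in the P3 pooled list (43 tags), the highest gene-desert score of that list. The 3 calls started at 7587933, 7588038 and 7587988, and no P5 list held a peak there. Its 3 sequences had a GC content of 37.2, 35.7 and 40% and none held the flexible E-box. Ephrin-B2 is a membrane ligand of Eph receptors and a marker of arteries, which is background and not a result of these data. In the curated RefSeq annotation the nearest TSS was that of Gm17215, 207057 bp from the call of replicate 4, so this place was beyond 500 kb only in the annotation of the deposited lists.

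Most peaks of the pooled lists had no counterpart in a single library. Of 237 gene-desert peaks of the P3 pooled list, 55 overlapped a narrow peak of replicate 4 only, 5 of replicate 5 only, 1 of both and 176 of neither (74.3%, beside 75.1% of near peaks). Of 31 in the P5 pooled list, 6 overlapped replicate 3, none replicate 2 and 25 neither (80.6%, beside 66.7%). Those without a counterpart scored a median of 2.48 at P3, beside 2.73 for those with one, and 2.15 beside 2.19 at P5. Among the P3 pooled peaks, Efnb2 was followed by the peaks near Hs3st1, a heparan sulfate sulfotransferase, and D830032E09Rik (3.47 each), 4930545E07Rik (3.39) and Cobl (3.31). These also had a peak of replicate 4 at the place, with 4.17 at Hs3st1, 5.08 at D830032E09Rik and 4930545E07Rik and 5.26 at Cobl. The P5 pooled list was led by 4930404A05Rik (2.61), Gm2516 (2.46) and, at 2.38 each, Flrt2, Mettl4, 1700065L07Rik and Gm20268. Of these 6, the Gm2516 place alone had a peak in a P5 library, with 3.22 in replicate 3.

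Gene-desert peaks were poorer in G and C than near peaks in every library. The mean GC content was 32.4% in P3 replicate 4 (SD 6.40 over peaks, n = 582), 31.9% in P3 replicate 5 (SD 5.42, n = 64), 27.4% in P5 replicate 2 (SD 6.36, n = 7) and 33.1% in P5 replicate 3 (SD 6.83, n = 73). Near peaks had 39.0, 38.6, 39.1 and 42.2%. The differences were -6.64, -6.70, -11.8 and -9.14 percentage points, with a mean of -8.56, and lower in gene deserts in 4 of 4 libraries (exact sign-flip permutation test, two-sided, p = 0.13, the smallest that 4 libraries allow). The reference differs in the same direction: unmasked bases of gene deserts had 37.3% GC and unmasked bases outside genes within 50 kb of a TSS 44.0%. The GC content of peaks was taken over all their bases, masked ones included. Over all bases, masked ones included, the reference had 37.7% in gene deserts and 42.8% outside genes within 50 kb of a TSS. The mean of the peaks was below these genome-wide means in both classes in every library, but only slightly for near peaks of P5 replicate 3 (42.2%). The sequence around each peak was not measured. Single gene-desert peaks ranged from 18.2 to 54.5%.

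The flexible E-box was about as frequent in gene-desert peaks as in desert windows of the same length. It was in 175 of 582 sequences of P3 replicate 4 (30.1%, 26.4 to 34.0%), beside 28.4% of all desert windows of that length whose center no repeat masks. P3 replicate 5 had 18 of 64 (28.1%, 17.6 to 40.8%) beside 32.6% of windows, P5 replicate 2 had 5 of 7 (71.4%, 29.04 to 96.3%) beside 31.7%, and P5 replicate 3 had 25 of 73 (34.2%, 23.5 to 46.3%) beside 32.6%. The share of windows lay inside all 4 intervals. Against near peaks (29.1, 34.5, 36.4 and 39.0%) the difference was positive in 2 libraries and negative in 2, with a mean of 6.22 percentage points (exact sign-flip permutation test, two-sided, p = 0.875). Without P5 replicate 2, whose 7 sequences are shown above, the mean was -3.39.

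The exact CACGTG was in 0.344% of the gene-desert peaks of P3 replicate 4, beside 0.639% of windows and 1.35% of near peaks. None of the gene-desert peaks of the other 3 libraries held it, beside 0.721 to 0.757% of windows. Near peaks of these libraries had 1.82, 0 and 1.42%. In the P3 pooled list the order was the other way, with 0.844% beside 0.721% of windows and 0.218% of near peaks. Each share above 0 in gene deserts rests on 2 peaks, and the difference from windows was not tested. The 2 peaks of P3 replicate 4 scored 3.08 near Robo1, a receptor of Slit ligands, and 4.35 near the noncoding gene Gm6634. Those of the P3 pooled list scored 2.65 near Tle4, a transcriptional corepressor, and 2.32 near Aga, a lysosomal hydrolase. A match is a description of the letters and not evidence of a bound site.

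**Figure D3:**
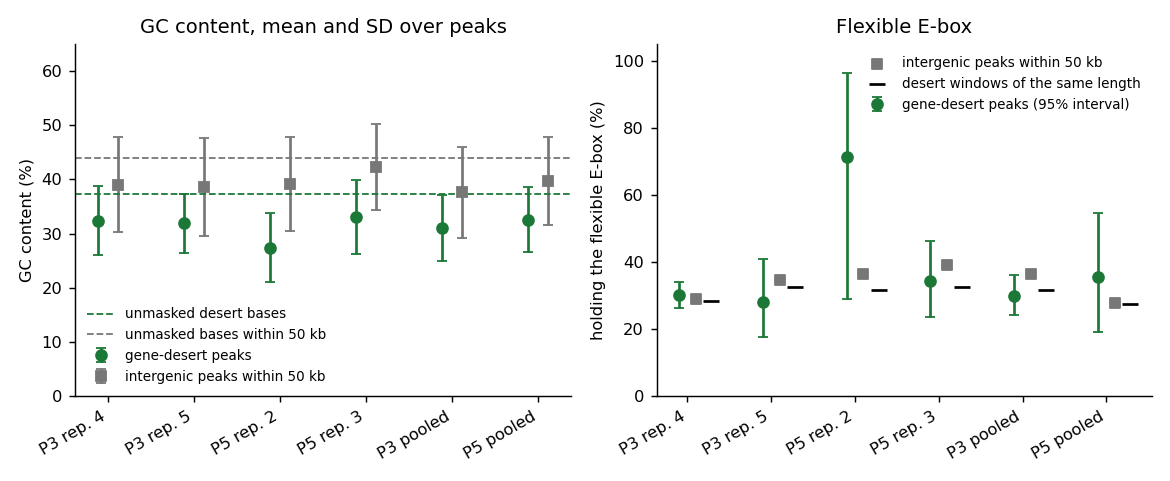
Left, GC content in percent of gene-desert peaks (circles) and near peaks (squares) by list, mean and SD over peaks, with the GC content of unmasked reference bases as dashed lines; gene-desert peaks have 27.4 to 33.1% in each list and near peaks 37.6 to 42.2%. Right, percent of peaks that hold the flexible E-box, with the 95% interval for gene-desert peaks; desert windows of the same length (dashes) lie inside the interval of each list.

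A broad peak of the same list overlapped gene-desert peaks more often than near peaks. Broad peaks are the variable-width calls made on the same reads. They overlapped 288 of 582 gene-desert peaks in P3 replicate 4 (49.5%, beside 26.2% of near peaks) and 31 of 64 in P3 replicate 5 (48.4%, beside 31.8%). In P5 replicate 2 it was 4 of 7 (57.1%, beside 27.3%) and in P5 replicate 3 30 of 73 (41.1%, beside 19.1%). The share was higher in 4 of 4 libraries by 23.3, 16.6, 29.9 and 21.9 percentage points, 22.9 on average (exact sign-flip permutation test, two-sided, p = 0.13, the smallest that 4 libraries allow). Base composition moved with this result. Among peaks of 25 to 35% GC, a range chosen once the data had been seen, the shares were 54.2 and 41.9% in P3 replicate 4, 55 and 48.6% in P3 replicate 5 and, in P5 replicate 2, 3 of 3 peaks and 3 of 8, and in P5 replicate 3 they turned to 38.3 and 41.7%. The part of base composition in the difference was not tested further. A broad peak of any other library overlapped 16 of 582 gene-desert peaks of P3 replicate 4 (2.75%), 2 of 64 of P3 replicate 5 (3.13%), 1 of 7 of P5 replicate 2 and 1 of 73 of P5 replicate 3 (1.37%). The shares of near peaks were 1.15, 0.909, 0 and 1.42%, and those of all peaks outside gene deserts 1.71, 3.52, 5.18 and 2.93%, so low counts were general to these libraries.

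**Figure D4:**
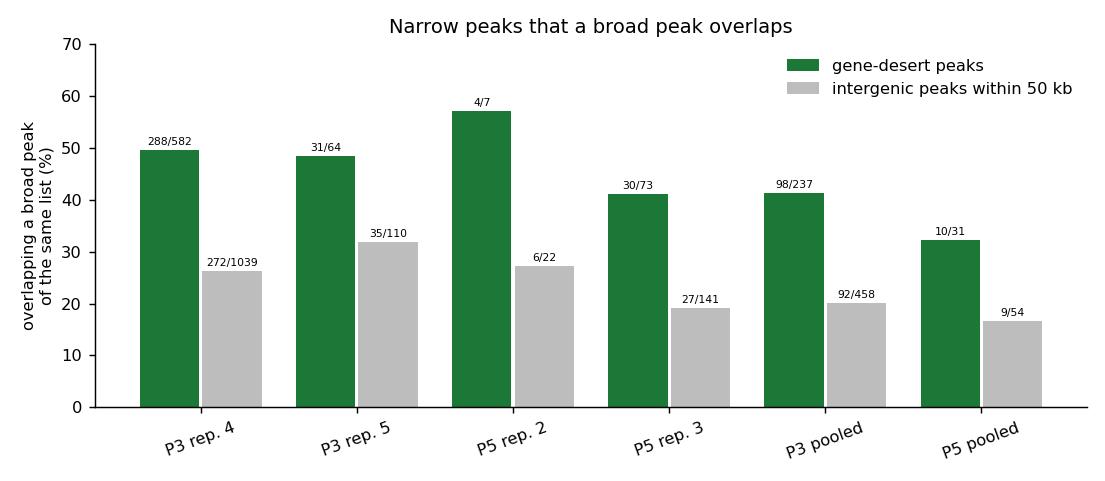
Percent of gene-desert peaks (green) and near peaks (grey) that a broad peak of the same list overlaps by 1 bp or more, with the counts above the bars. The green bar is the higher in each of the 6 lists, from 32.3% in the P5 pooled list to 57.1% in P5 replicate 2.

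Sex chromosomes held few gene-desert peaks. Chromosome X has 11.5 Mb of curated desert and had 7 gene-desert peaks in P3 replicate 4. Of the 457 peaks of that library that were also desert by curated RefSeq, these 7 came to 0.606 per Mb of curated desert, where the autosomes had 2.05 to 3.93 per Mb. The P3 pooled list had 6 on X, and the other lists none. Chromosome Y has 36.5 Mb of desert, 17.9% of the total, and had no gene-desert peak in any list, where all narrow peaks on Y numbered 0 to 3 per list. Chromosome X holds 6.18% of the non-gap genome. In the single libraries all narrow peaks were few there too, with 1.75% in P3 replicate 4 and 0.636 to 3% in the other 3. In the P3 pooled list the classes differed, with 2.53% of gene-desert peaks on X beside 5.46% of near peaks and 4.99% of all narrow peaks. The sex of the animals and how well reads map to Y were not given in the sources used here, and their part was not tested.

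Peaks of different libraries shared intervals between protein-coding TSSs, mostly at different places. The 726 peaks of single libraries lay in 202 intervals between neighbouring protein-coding TSSs (curated RefSeq). Of these, 121 had peaks of 1 library, 81 of 2 or more, 20 of 3 or more and 4 of all 4 libraries. The same counts were not made for near peaks or for all narrow peaks. P3 replicate 4 alone gave 582 of the 726 peaks, so the counts describe position and are not read as recurrence. The interval from Lrrc4c to Iftap on chromosome 2, beside Rag2, had the most, with 11 peaks of P3 replicate 4, 3 of P3 replicate 5, none of P5 replicate 2 and 2 of P5 replicate 3 over 4.15 Mb. The interval from Slc10a2 to Efnb2 had 8, 3, 1 and 3 over 3.56 Mb and the interval from Pcdh20 to Pcdh9 had 8, 1, 1 and 3 over 5.42 Mb. The other intervals with all 4 libraries were Stim2 to Pcdh7 (5, 2, 1 and 3 over 3.72 Mb) and Dsel to Cntnap5a (4, 1, 1 and 1 over 3.82 Mb). The intervals with the most peaks were wide, 2.65 to 5.42 Mb for the first 12, where the median interval with a gene-desert peak was 1.82 Mb. These widths run from TSS to TSS and can include gene bodies and noncoding genes. An interval with 8 peaks, all of P3 replicate 4, lay between alternative TSSs of Lsamp, so it can lie inside a longer transcript of that gene. By curated RefSeq, 14 gene-desert peaks of this library lay inside a gene.

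**Figure D5:**
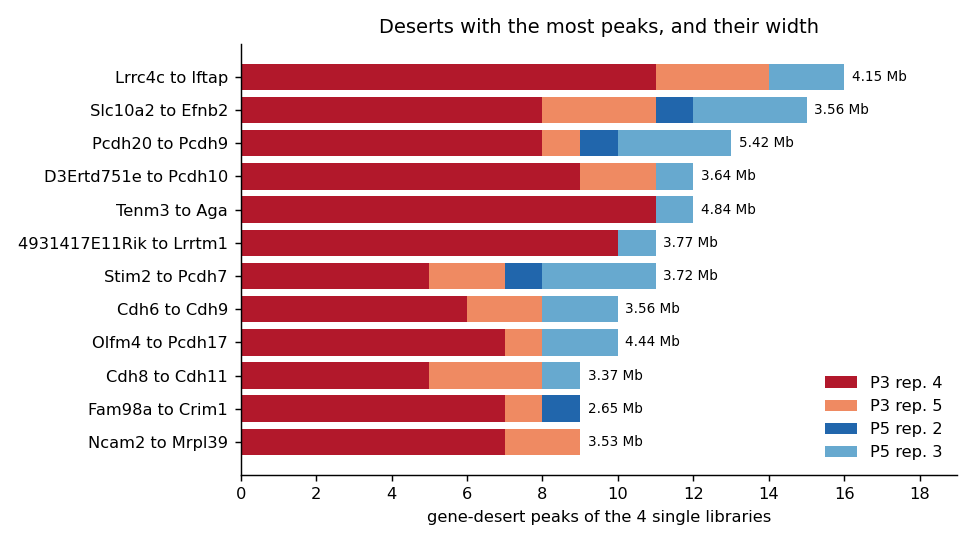
Number of gene-desert peaks of the 4 single libraries (stacked colors) in the 12 intervals between protein-coding TSSs that hold the most, with the width of each interval in Mb. The counts run from 16 to 9, P3 replicate 4 gives the largest part of each bar, and 3 of these 12 intervals have peaks of all 4 libraries.

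By nearest gene as annotated, 332 genes had a gene-desert peak, 84 of them in 2 or more libraries and 20 in 3 or more. No such count was made for near peaks or for all narrow peaks. Rag2, a component of the recombinase of lymphocytes, had the most places over the 4 libraries (10), with scores from 2.54 to 4.53 at 0.521 to 1.82 Mb. Cdh9, a type II cadherin, and Lrrc4c, the netrin-G ligand NGL-1, had 9 each, with top scores of 4.71 and 4.17. Lrrtm1, a synaptic adhesion protein with leucine-rich repeats, and Slc10a2, the bile acid transporter of the ileum, had 8. Brinp3, D3Ertd751e, the noncoding Gm10440, the adhesion molecule Ncam2 and Pcdh17 had 7 each. In 3 genes all 4 libraries had a peak. Slc10a2 had 3, 2, 1 and 2, with scores of 2.93 to 3.99, and none in the pooled lists. Dsel, a relative of dermatan sulfate epimerase, had 1 in each library (3.44, 3.50, 3.55 and 3.22), and 4932441J04Rik also 1 in each (3.26, 3.65, 3.39 and 3.52). The 4 peaks of Dsel lay 0.560 to 1.53 Mb from its TSS and none overlapped another.

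The families that flank deserts were described by counts of the 571 library peaks that are desert by curated RefSeq. P3 replicate 4 gave 457 of them, P3 replicate 5 53, P5 replicate 2 6 and P5 replicate 3 55. In every family with such a peak, P3 replicate 4 gave most of them and P5 replicate 2 gave 0. The counts therefore describe mainly P3 replicate 4. Each peak was assigned to its nearest RefSeq gene, and the share of 1-kb desert bins nearest to the same family is set beside it. The bins included chromosome Y, which held 17.9% of desert bases and no gene-desert peak. Bin shares of families on other chromosomes would be higher without it. Cadherins took 26 peaks (4.55%) beside 3.39% of bins. As annotated, 9 of 20 had a peak, led by Cdh8 (5.26), Cdh11 (5.08), Cdh9 and Cdh18 (4.71 each). For such counts of genes, here and in the families below, no share over all genes was made. They are therefore not read as a trait of a family. Non-clustered protocadherins took 4 (0.701%) beside 0.89% of bins, with Pcdh17 (5.26), Pcdh9 (4.89), Pcdh19 (3.26) and Pcdh20 (2.98, pooled) annotated. Eph receptors and ephrins took 8 (1.40%) beside 1.51%, with Epha7 (4.53), Epha6 and Efnb2 (4.17 each) and Epha5 (2.93). These are the guidance receptors and ligands by which axons find their layer or target.

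Leucine-rich repeat proteins of synapses took 26 peaks (4.55%) beside 3.44% of bins, and 8 of 20 had an annotated peak, led by Lrrtm1 (4.35), Lrrc4c (4.17), Lrrn3 (3.99) and Lingo2 (3.81). Teneurins and latrophilins, which bind each other across the synapse, took 12 (2.10%) beside 1.56%, with Tenm2 (4.53), Lphn2 (4.35), Tenm3 and Tenm4 (3.63 each). Neurexins, neuroligins and contactins took 6 (1.05%) beside 1.24%, with Nlgn1 (3.99), Cntnap5a (3.81) and Cntn5 (3.20). Ionotropic glutamate receptors took 6 (1.05%) beside 1.08%, with Grin3a, which had 3.20 in P3 replicate 5 and 3.23 in the P3 pooled list at the same place. Axon guidance genes took 4 (0.701%) beside 0.489%, with Robo1 (4.17), Slit2 (3.99), Sema6d (2.93, P5 replicate 3) and Dcc (2, P5 pooled). The shares of peaks stayed within 1.5 times the share of bins in each of these 8 families.

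Developmental transcription factors took 8 peaks (1.40%) beside 0.917% of bins, just above 1.5 times, with chromosome Y among the bins. The difference rests on 8 peaks, 7 of them from P3 replicate 4, and was not tested. As annotated, 7 of 51 had a peak, led by Dach1 (4.53), Mef2c and Meis1 (4.35 each) and Nr2f1 (3.99). Of 24 genes of the core clock and its outputs only Rorb, a nuclear receptor of photoreceptor development, had any: 2 peaks of P3 replicate 4 at 546 and 580 kb (3.99 and 3.26). By RefSeq these genes had 0 peaks and 0% of bins, as had 17 angiogenesis ligands and receptors (0 peaks and 0% of bins), of which none had an annotated gene-desert peak either. With no desert bin nearest to them, a RefSeq count above 0 was not possible for these lists.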

How the data were processed

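Retinal DNA from Bmal1 ChIP-seq at P3 and P5 was trimmed (Trim Galore, after bcl2fastq), aligned to GRCm38 (mm10) with bowtie2 and called into peaks by the authors; MACS2 is named as the caller, while the headers of the lists name HOMER. For the versions and the calling thresholds, no source used here states a value. The deposited peak score counts tags per 10 M, which the authors scaled by depth, and the deposited distance to the TSS is in bp. Tag numbers were recovered from the step of the scores (all scores whole multiples within 0.0052), and repeated tags and calls on pooled reads are not independent.

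Narrow and broad lists of 4 libraries and of both pooled ages were used. The lists of all 4 libraries pooled, the tables of gene names, pathways and text, and motif matches entered by the authors were left out. The rule for the peaks, the gene lists and the tests were chosen with earlier results of these data known. Named genes were those of places in 2 or more libraries, the 5 highest peaks of each pooled list and the 3 highest of each library, the 10 genes with most places, the 5 farthest peaks, and up to 4 per gene list by score; ties, further genes at a shared interval and the peaks holding CACGTG were named after their values were seen. A few genes named by the rule were left out of the text. Sequence and annotation came from GRCm38.p6 RefSeq, and motifs were searched on both strands. Tests were exact permutations over libraries, and 0.05 was the threshold. Overlap, motif and distance code was tested on simulated data. Alternatives were a limit of 1 Mb, autosomes only, repeats included, other TSS sets, other comparison peaks, the upper 50% of scores, other motifs, full cover by a broad peak, centers within 1 kb and each library left out; the range of 25 to 35% GC was added after seeing the data. Calculations used Python 3.11.15, numpy 2.4.6, pandas 2.3.3, scipy 1.17.1 and samtools 1.23.1.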

Additional observations from a re-analysis of the deposited data

How the results depend on the processing

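Of 64 alternative values, 54 were labelled the same. A difference was so labelled if its direction did not reverse, a value of 0 included, and a count of places if it stayed within 1.5 times. No test passed 0.05 in any setting. The number of libraries fixed this in advance, so it says nothing on how stable the results are. The smallest two-sided p was 0.13 by the exact sign-flip permutation test of 4 libraries and 0.33 by the exact permutation test of 2 against 2. The ratio of the gene-desert share to that of the genome turned from a mean log2 of -0.05 to 0.20 on autosomes only and to 0.20 with predicted RefSeq transcripts, and ranged from -0.158 to 0.0906 with 1 library left out, the highest without P5 replicate 2. The difference in score turned from -0.02 to 0.075 at a limit of 1 Mb and to 0.056 with repeats included, and ranged from -0.027 to 0 over left-out libraries. The difference in flexible E-boxes of 6.22 points became -1.06 for the exact CACGTG and ranged from -3.39 to 10.4 over left-out libraries. Places in 2 or more libraries rose from 1 to 3 with repeats included, and were 0 or 1 with a library left out. The other results kept their direction. Leave-one-out ranges were 0.975 to 2.94 points for the share, -9.20 to -7.49 for GC content and 20.6 to 25.04 for broad overlap. Broad overlap was 16.95 at 1 Mb (p = 0.375 by the exact permutation test, 3 of 4 libraries). Within 25 to 35% GC it was 19.5 (p = 0.25 by the exact permutation test, 3 of 4 libraries). That mean rested largely on P5 replicate 2, with 3 of 3 gene-desert peaks beside 3 of 8 near peaks. The shares were 54.2 and 41.9% in P3 replicate 4, 55 and 48.6% in P3 replicate 5, and 38.3 and 41.7% in P5 replicate 3. Causes of these changes were not tested. No paired analysis was possible because the libraries of P3 (4 and 5) and P5 (2 and 3) share no replicate number. With 7 gene-desert peaks in P5 replicate 2, its shares have wide intervals.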
